A study of Arabidopsis thaliana with 16 samples.

Results

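Xyloglucan endotransglucosylase/hydrolases (XTHs) are wall enzymes of growing plant cells, and 5 of their genes, XTH16, XTH18, XTH19, XTH21 and XTH26, were followed along the Arabidopsis thaliana root on standard medium and after 1 h of salt. They were taken by name, with earlier results of these data known. They are 5 of the 13356 genes that have a probe set of their own in the probe table of the Affymetrix ATH1 array, and each was read by 1 probe set. Their loci are AT3G23730 (XTH16), AT4G30280 (XTH18), AT4G30290 (XTH19), AT2G18800 (XTH21) and AT4G28850 (XTH26). In the order of protein-coding genes of the TAIR10.1 assembly, XTH24, XTH18 and XTH19 follow one another directly. No probe sequences were used here, so how far a probe set also binds the transcript of a close relative was not tested.

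Xyloglucan is a branched sugar polymer that coats and links cellulose fibrils in the primary wall. XTH enzymes cut a xyloglucan chain and join the cut end to another chain, or in some members to water, and so remodel or loosen the wall while a cell enlarges. In roots, XTH activity is known to rise where cells elongate and at the sites where hairs emerge. XTH18 and XTH19 are close relatives known from reporter lines in the growing and maturing root, XTH21 is known to be needed for normal growth of the primary root, and XTH26 is known from root hairs.

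Seedlings of the ecotype Columbia were grown for 5 days on standard medium and moved for 1 h to fresh standard medium or to the same medium with 140 mM NaCl, and no group carried a mutation or transgene in the labels. Roots were then cut into zone 1 (the outermost tip, about 150 µm), zone 2 (roughly 200 µm more, reaching the end of the meristem), zone 3 (a further 200 to 300 µm, ending below the first hairs) and zone 4 (about 1 mm above that). Each of the 8 combinations of zone and medium had 2 arrays, 16 in all, and each array used RNA pooled from about 15 sections, amplified over a pair of cycles. The labels do not say whether replicates came from separate cultures, so p-values measure only the spread between these samples, which may be technical. Values are MAS 5 signals in intensity units. Median signals ranged over the arrays from 58.6 to 77.0, and the number of arrays, not a read depth, limits the precision.

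The zone labels were checked against marker genes, most of which had no named probe set. AUR1 and AUR2, mitotic kinases, were the only 2 of 13 markers of dividing cells that could be read. On standard medium AUR1 averaged 777 in zone 1 and 273, 100.1 and 188 in zones 2, 3 and 4. EXPA7, a root hair expansin, averaged 25.2 and 24.7 in zones 1 and 2, 2098 in zone 3 and 2672 in zone 4, so its transcript was already present in the zone cut below the hairs. EXPA18, also a hair expansin, averaged 39.2, 24.1, 1357 and 3952 in the same order. SCN1, the third hair marker that could be read, did not follow them, with 490, 972, 2018 and 1388, clear at the tip and with a lower mean in zone 4 than in zone 3. No marker of the root cap, vessels, endodermis or green tissue had a named probe set, and those cell types could not be checked. Of 3 measured genes known to respond to salt or drying, LTI30 and LEA4-5 rose under NaCl in every zone and COR47 in zones 2 and 3.

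On standard medium all 5 genes changed along the root, and 4 of them had their highest mean in zone 3, the elongation zone. XTH18, XTH19 and XTH21 peaked there and were higher in zone 3 than in each of the other zones, 3 of 5 genes beside 5.6% of all tested probe sets. XTH16 was high in both zone 2 and zone 3. XTH26 stood apart, being high in zone 4 alone. The difference between the 4 standard zones passed for 5 of 5 genes, beside 81.5% of all tested probe sets, so this count says little about XTH genes as such. A change is given below on the log2(signal + 16) scale, where 1 is a doubling of high signals and changes of low signals are understated, and a test passed where the limma p-value adjusted over all 17099 tested probe sets was under 0.05.

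**Figure D1:**
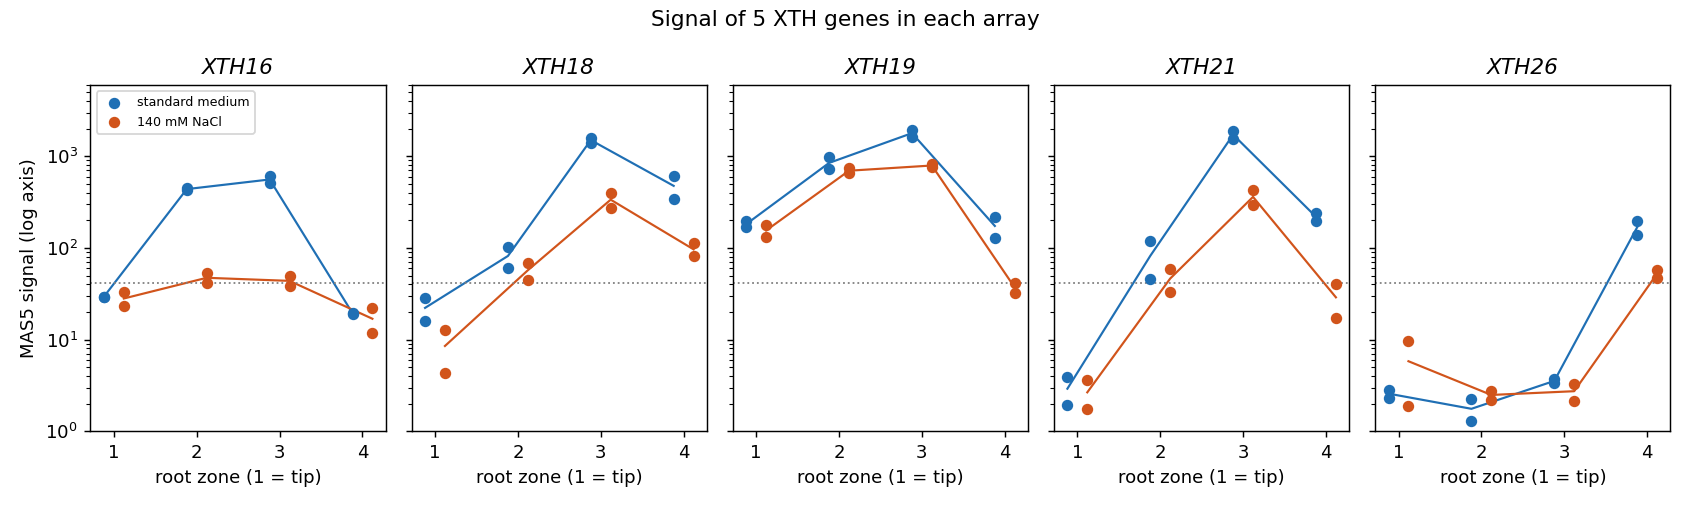
MAS 5 signal (log axis) of each array by root zone, with a panel per gene; points are single arrays, lines join the means of 2 arrays, blue is standard medium, orange 140 mM NaCl, and the dotted line marks the signal of 41.4 used as the filter level. XTH18, XTH19 and XTH21 peak in zone 3 at standard means of 1501, 1786 and 1720, XTH16 spans zones 2 and 3, and XTH26 appears in zone 4; levels of different probe sets are not to be compared.

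XTH16 was a gene of zones 2 and 3. Its standard arrays read 29.3 and 29.4 in zone 1, 427 and 449 in zone 2, 513 and 604 in zone 3, and 19.1 and 19.7 in zone 4. The arrays of zones 2 and 3 thus lay far above those of zones 1 and 4, which were below the filter level of 41.4. All 6 arrays of XTH16 above that level, standard and salted, were of zones 2 and 3, so a difference of these from zones 1 and 4 was built into its being tested. Zone 2 was higher than zone 1 by 3.32 (SE 0.21, adjusted p = 4.11e-09), and zone 4 was 16.2-fold lower than zone 3 (change -4.02, adjusted p = 1.69e-10). Zone 3 minus zone 2 was 0.33 (SE 0.21, adjusted p = 0.201) and zone 4 minus zone 1 was -0.36 (adjusted p = 0.145), and neither passed although the arrays did not overlap.

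XTH18 and XTH19, which lie side by side in the genome, both peaked in zone 3 but differed in their flanks. XTH18 read 15.9 and 28.5 in zone 1, 60.3 and 103 in zone 2, 1409 and 1592 in zone 3, and 345 and 606 in zone 4. None of these pairs overlapped, and every step in the order zone 3, zone 4, zone 2, zone 1 passed. Zone 3 was above zone 2 by 3.99 (SE 0.30, 15.9-fold, adjusted p = 7.53e-09) and zone 4 below zone 3 by 1.68 (SE 0.30; change -1.68, adjusted p = 0.000167).

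XTH19 was already strong in the meristem and low again in the hair zone. It read 168 and 196 in zone 1, 722 and 971 in zone 2, 1623 and 1949 in zone 3, and 128 and 219 in zone 4. Zone 3 was 1.07 above zone 2 (SE 0.22, adjusted p = 0.000464), a smaller step than the 3.99 of XTH18, although the difference between these genes was not tested. Zones 1 and 4, whose arrays overlapped, did not differ beyond their spread (-0.10, SE 0.22, adjusted p = 0.699).

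XTH21, the gene tied to growth of the primary root, rose from very low signals at the tip to a zone 3 peak. It read 1.93 and 3.89 in zone 1, 45.3 and 119 in zone 2, 1543 and 1897 in zone 3, and 197 and 239 in zone 4. The rise from zone 2 to zone 3 was 4.25 (SE 0.33, 19.0-fold, adjusted p = 1.1e-08), and zone 4 lay below zone 3 by 2.89 (change -2.89, adjusted p = 1.38e-06). As in XTH18, all neighbours in the order zone 3, zone 4, zone 2, zone 1 differed, zone 4 being above zone 2 by 1.36 (adjusted p = 0.00145).

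XTH26, the root hair member, was near the bottom of the scale except in zone 4. Its standard arrays read 139 and 197 there, and between 1.28 and 3.68 in the other zones. Zone 4 was above zone 3 by 3.22 (SE 0.28, adjusted p = 7.72e-08), while no difference among zones 1, 2 and 3 passed (adjusted p between 0.711 and 0.888). It passed the filter through its 4 zone 4 arrays alone, so a difference between zones was built into its being tested. EXPA7 and EXPA18, the hair expansins, were by contrast already high in zone 3, where XTH26 read 3.40 and 3.68.

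Under salt these genes were lower in 1 or both of the older zones, and XTH16 also in zone 2. In zone 3, XTH16, XTH18, XTH19 and XTH21 fell, 4 of 5 beside 13.2% of all tested probe sets. In zone 4, XTH18, XTH19, XTH21 and XTH26 fell, 4 of 5 beside 6.56%. In zone 2, XTH16 fell, 1 of 5 beside 5.2%, and in zone 1 none of the 5 fell, beside 4.63%. None of the 5 rose in zones 1, 2, 3 or 4, beside 5.01%, 6.19%, 12.6% and 5.5%. XTH18, XTH19 and XTH21 fell in both zone 3 and zone 4, 3 of 5 beside 2.25% of all tested probe sets, and XTH16 in both zone 2 and zone 3, 1 of 5 beside 2.6%. Because the genes were chosen with earlier results of these data known, these counts do not test XTH genes as a set. Of the 957 probe sets with a standard zone 3 peak, 40.4% fell in zone 3 under salt, so a fall there is common among genes of that pattern, to which XTH18, XTH19 and XTH21 belong. In sections of whole root, fewer cells of a type and less RNA per cell cannot be told apart.

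**Figure D2:**
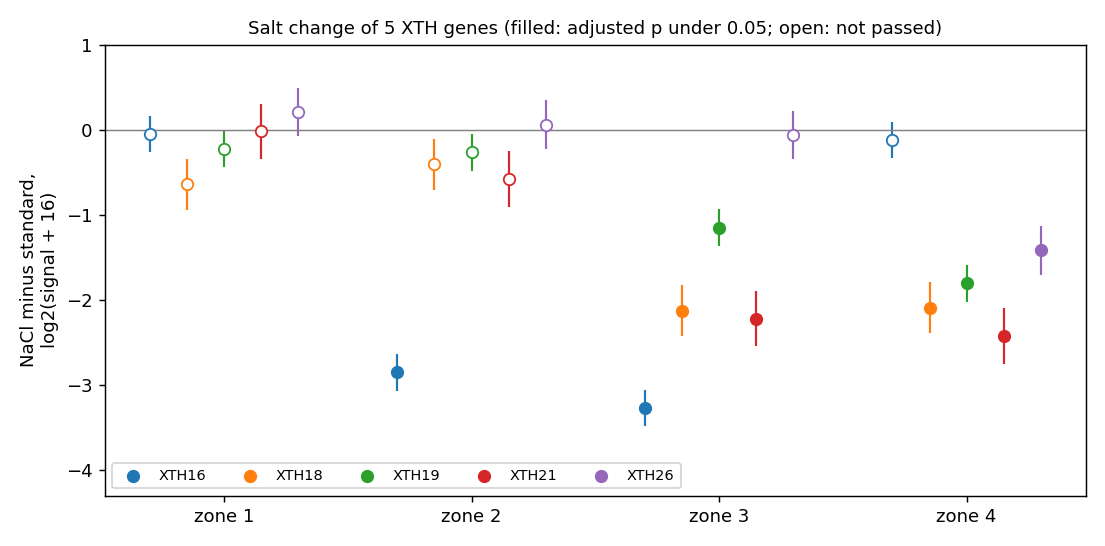
NaCl minus standard on the log2(signal + 16) scale (y axis) in each root zone (x axis) for the 5 XTH genes, with the moderated standard error of the fit on 2 arrays per group; filled points passed an adjusted p of 0.05 and open points did not. The falls lie in zones 2 and 3 for XTH16, in zones 3 and 4 for XTH18, XTH19 and XTH21, and in zone 4 for XTH26.

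XTH16 lost most of its signal in both zones where it was high. Under NaCl it read 41.1 and 53.4 in zone 2 and 38.4 and 49.0 in zone 3, so every salted array lay far below every standard array of the same zone, close to the filter level. The mean signal was 10.8% of the standard mean in zone 2 and 7.83% in zone 3. The changes were -2.85 in zone 2 (SE 0.21, adjusted p = 1.54e-07) and -3.27 in zone 3 (SE 0.21, adjusted p = 1.48e-08), and they did not differ beyond their spread (-0.42, SE 0.30, adjusted p = 0.467). In zones 1 and 4, where the standard signals were below the filter level, the changes were -0.05 and -0.12 (adjusted p = 0.925 and 0.799). The salt change differed between zones (adjusted p = 1.8e-06, beside 18.3% of probe sets, a test that 5 of 5 genes passed).

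Both markers of dividing cells that could be read, 2 of 13 listed, also fell in zone 2, beside 5.2% of all tested probe sets. AUR1 changed by -0.60 (adjusted p = 0.0297) and AUR2 by -0.90 (adjusted p = 0.0249) there, and neither passed in zone 3. AUR1 fell in zone 1 as well (-0.76, adjusted p = 0.0079), where the change of XTH16 was -0.05, while AUR2 did not pass there (-0.52, adjusted p = 0.221). The part of dividing cells in the fall of XTH16 was not tested.

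Most of the pattern of XTH16 along the root was absent under salt, though its zones, like those of all 5 genes, still differed (adjusted p = 0.0018, 5 of 5 beside 82.2% of probe sets). The 4 salted zones averaged 28.1, 47.2, 43.7 and 16.9 in order from the tip, against 29.4, 438, 558 and 19.4 on standard medium. Zones 2 and 3 no longer passed against zone 1 (0.52, adjusted p = 0.0606, and 0.44, adjusted p = 0.0777). Zone 4 remained below zone 2 by 0.95 (change -0.95, adjusted p = 0.00081) and below zone 3 (-0.87, adjusted p = 0.00347, but 0.053 without zone 4 NaCl replicate 1).

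XTH18 was lower in both older zones. Under NaCl it read 276 and 396 in zone 3 and 80.9 and 112 in zone 4, below both standard arrays in each case. These means were 22.4% and 20.3% of the standard ones. The changes were -2.13 in zone 3 (SE 0.30, adjusted p = 5.09e-05) and -2.09 in zone 4 (SE 0.30, adjusted p = 0.000128), 0.04 apart (SE 0.42, adjusted p = 0.972). In zone 2 the salted arrays, 44.7 and 69.3, overlapped the standard ones (-0.41, adjusted p = 0.452). In zone 1 they read 4.28 and 12.7, below both standard arrays but without passing, and under the filter level as on standard medium (-0.64, adjusted p = 0.207).

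The zone 3 peak of XTH18 persisted under salt. Zone 3 was above zone 2 by 2.27 (adjusted p = 4.45e-06) and above zone 4 (-1.64 for zone 4 minus zone 3, SE 0.30, adjusted p = 0.000281), while zone 4 was not clearly above zone 2 (0.63, SE 0.30, adjusted p = 0.074). The salt change differed between zones (adjusted p = 0.00815), a call lost with a pseudocount of 1 (0.162).

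XTH19, the relative with the broader range, fell less in zone 3 than in zone 4 by the point estimates. It read 760 and 825 in zone 3, 44.4% of the standard mean, and 32.5 and 41.5 in zone 4, 21.3% of it, in both zones below both standard arrays. The changes were -1.15 (SE 0.22, adjusted p = 0.000802) and -1.80 (SE 0.22, adjusted p = 2.53e-05), but their difference did not pass (-0.65, SE 0.31, adjusted p = 0.202). The salted zone 4 arrays lay under or at the filter level of 41.4, and the gap depended on the pseudocount. With 64 the changes in zones 3 and 4 were -1.11 and -1.21, and with 1 they were -1.17 and -2.16. In zones 1 and 2 salted and standard arrays overlapped, with changes of -0.22 and -0.27 (adjusted p = 0.606 and 0.51). The zone 4 change exceeded those of zone 1 by 1.58 (difference -1.58, adjusted p = 0.00467) and of zone 2 by 1.54 (difference -1.54, adjusted p = 0.00506), and the test over all zones passed (adjusted p = 0.00333).

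The zones of XTH19 kept the order of their means under salt, while the steps between them differed in size. Under salt the zone 2 arrays, 650 and 741, stood close to those of zone 3, and the step between them was 0.19 (SE 0.22, adjusted p = 0.488), against 1.07 on standard medium, although the salt changes of zones 3 and 2 did not differ past the threshold (-0.89, adjusted p = 0.0912). Zone 4, whose arrays overlapped those of zone 1 on standard medium, was below zone 1 under salt (-1.68, SE 0.22, adjusted p = 2.33e-06).

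XTH21 fell in both older zones. It read 296 and 425 in zone 3 and 17.3 and 40.5 in zone 4, where both salted arrays were under the filter level, so that its percentages of the standard mean were 21.0% and 13.2%. The changes were -2.22 in zone 3 (SE 0.33, adjusted p = 8.45e-05) and -2.43 in zone 4 (SE 0.33, adjusted p = 7.83e-05; -1.61 with a pseudocount of 64). They did not differ beyond their spread (-0.21, SE 0.46, adjusted p = 0.841). Zone 2 gave overlapping arrays, 33.2 and 59.4 against 45.3 and 119 (-0.58, SE 0.33, adjusted p = 0.309), and zone 1 had no signal above 3.89 on either medium. The salt change differed between zones (adjusted p = 0.00244).

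Under salt the zone 3 peak of XTH21 stayed, at 2.61 above zone 2 (adjusted p = 2.81e-06). Zone 4, which had been above zone 2 on standard medium, did not differ from it beyond the spread under salt (-0.49, SE 0.33, adjusted p = 0.205). A zone 3 level above every other zone of the same medium was thus met under NaCl by XTH18 and XTH21 and not by XTH19, beside 5.59% of all tested probe sets.

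XTH26 fell in zone 4, the zone of emerged hairs where it was read. The salted arrays there read 47.5 and 57.0, 31.1% of the standard mean and below both standard arrays. The change was -1.42 (SE 0.28, adjusted p = 0.00272), a call lost without zone 4 standard replicate 7 (-1.19, adjusted p = 0.0525) and with a pseudocount of 1 (-1.65, adjusted p = 0.221). The salt change differed between zones (adjusted p = 0.0235), but not with a pseudocount of 1 (0.369) or without zone 4 standard replicate 7 (0.133), NaCl replicate 1 (0.0945) or NaCl replicate 2 (0.0545). In zones 1 to 3 the salted arrays read between 1.89 and 9.72, all under the filter level, and no change passed.

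The hair expansins moved in zone 4 as well. EXPA7 changed by -1.43 (adjusted p = 0.00113) and EXPA18 by -1.74 (adjusted p = 3.44e-05) there. All 3 measured hair markers of the 9 listed, SCN1 included (-0.48, adjusted p = 0.0361), fell in that zone, beside 6.56% of all tested probe sets. In zone 3 EXPA7 and EXPA18 rose, by 1.18 and 1.01, where XTH26 stayed at 2.16 and 3.31. The part of hair cell number in the fall of XTH26 was not tested.

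Averaged over the 4 zones, XTH16 changed by -1.57 (SE 0.11, adjusted p = 8.74e-09), XTH18 by -1.32, XTH19 by -0.86 and XTH21 by -1.31 (adjusted p of 3.41e-06, 1.16e-05 and 1.02e-05). These 4 of 5 stand beside 15.3% of all tested probe sets that fell on average. XTH26 did not pass (-0.30, SE 0.14, adjusted p = 0.12), though it did with a pseudocount of 64 (0.00969) or without a variance trend (0.0293). The median change over all probe sets was 0.00 on average and between -0.02 and 0.05 in single zones.

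Each salted zone was also set against the next older unsalted zone. For XTH18 the salted zone 3 arrays, 276 and 396, overlapped those of unsalted zone 4, 345 and 606 (-0.45, SE 0.30, adjusted p = 0.26). Both salted arrays of XTH21 were above the unsalted zone 4 arrays, by 0.67 without passing (SE 0.33, adjusted p = 0.123). XTH19 stayed well above unsalted zone 4 (2.13, SE 0.22, adjusted p = 7.45e-07), and XTH16 somewhat (0.75, adjusted p = 0.0104, but 0.0913 without zone 3 NaCl replicate 2), 2 of 5 beside 17.1% of probe sets. XTH26 was far below unsalted zone 4 (-3.28, adjusted p = 1.19e-07), 1 of 5 beside 19.8%. This difference was built into its being tested, since XTH26 passed the filter through its zone 4 arrays alone. It repeats the step on standard medium, where zone 4 was above zone 3 by 3.22.

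Nearer the tip, salted zones lay below the next unsalted one. Salted zone 2 lay below unsalted zone 3 for XTH16 (-3.19), XTH18 (-4.39), XTH19 (-1.34) and XTH21 (-4.83), with adjusted p-values of at most 5.97e-05, and 4 of 5 stand beside 23.8% of probe sets. Salted zone 1 was below unsalted zone 2 for the same 4 genes, with changes of -3.37, -1.98, -2.33 and -2.29 in that order (adjusted p at most 5.59e-05), beside 16% of probe sets. XTH26 passed in neither comparison (-0.08 and 0.27). Much of this was already in the standard zones. There zone 3 minus zone 2 was 0.33, 3.99, 1.07 and 4.25 for XTH16, XTH18, XTH19 and XTH21. Zone 2 minus zone 1 was 3.32, 1.34, 2.11 and 2.27. No salt change of these genes passed in zone 1, and in zone 2 only that of XTH16. Apart from XTH16 in salted zone 2, the comparisons thus largely repeat the standard pattern.

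Of the other 28 genes of the XTH family, 5 had a named probe set and 4 of these passed the filter: XTH20, XTH27, XTH32 and XTH33. None of the 4 rose in any zone. In zone 3, 2 of 4 fell (XTH33 and XTH27) beside 13.2% of all tested probe sets, and in zone 4, 1 of 4 (XTH33) beside 6.56%. The medians were 0.03 and -0.53, against -2.13 and -1.80 for the 5 genes above and -0.01 and -0.02 over all probe sets. All 4 differed between standard zones, beside 81.5% of probe sets.

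XTH20, a close relative of XTH18 and XTH19 known from the older root, did not follow them. It averaged 8.32, 14.4, 121 and 1601 in standard zones 1 to 4 and 1289 ± 4.73 (SD, n = 2) in salted zone 4, against 1601 ± 170 on standard medium. Its zone 4 change was -0.31 (SE 0.21, adjusted p = 0.434), and in zone 3 it was 0.50 (SE 0.21, adjusted p = 0.0968). So the highest level of XTH20 lay in zone 4, where no salt change was detectable with these 4 arrays. XTH32 also had its highest standard mean in zone 4, with arrays of 226 and 241. Its salted arrays there, 131 and 132, lay below both, but the change did not pass (-0.75, SE 0.24, adjusted p = 0.0521). In zone 3 the change of XTH32 was 0.51 (SE 0.24, adjusted p = 0.139).

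XTH33 changed by -1.64 in zone 3 (SE 0.49, adjusted p = 0.0193) from standard arrays of 58.0 and 119 to 1.60 and 42.8. Its salted arrays lay far apart from each other, and the call was lost without zone 3 NaCl replicate 2 (-0.77, adjusted p = 0.319) or standard replicate 6 (-1.20, 0.18), with a pseudocount of 1 (0.0685), and with the zone's 4 arrays alone (0.0711). In zone 4 it changed by -1.64 (adjusted p = 0.0356), lost under 3 other settings and without any 1 of the 4 arrays of that zone (changes from -1.91 to -1.37). Averaged over the 4 zones, XTH33 changed by -1.18 (SE 0.24, adjusted p = 0.00134), and by -1.39 to -0.96 with single arrays left out. It was 1 of 4 relatives to fall on average, beside 15.3% of all tested probe sets. The salt change of XTH33 did not differ between zones past the threshold (adjusted p = 0.51). XTH27, known from the forming vessels of leaves, changed by -0.44 in zone 3 (SE 0.16, adjusted p = 0.04996, at the threshold itself), lost under 5 other settings and without any 1 of 11 arrays.

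**Figure D3:**
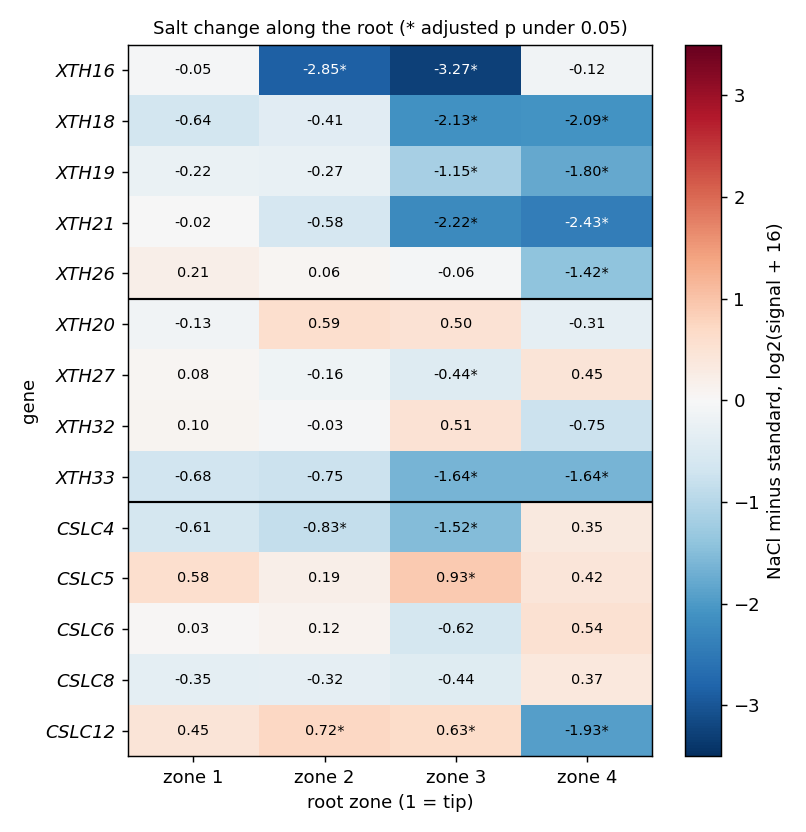
NaCl minus standard on the log2(signal + 16) scale (colour and printed value) by root zone for the 5 XTH genes, 4 further XTH genes and 5 CSLC genes, 2 arrays per group; stars mark an adjusted p under 0.05. Among the 5 XTH genes, starred falls lie in zone 2 for XTH16, in zone 3 for all but XTH26 and in zone 4 for all but XTH16, while CSLC4, CSLC5 and CSLC12 of the lower block moved in differing directions.

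Genes for the xyloglucan backbone were read as well, through 5 of 15 listed genes of xyloglucan synthesis, all of the CSLC family of glucan synthases. In zone 3, 2 of 5 rose (CSLC5 and CSLC12) and 1 fell (CSLC4), beside 12.6% and 13.2% of all tested probe sets, and in zone 4, 1 of 5 fell (CSLC12), beside 6.56%. CSLC4 read 735 and 1302 in standard zone 3 and 302 and 361 under salt. Both salted arrays lay below both standard ones, and the change was -1.52 (SE 0.22, adjusted p = 7.54e-05). In zone 4 CSLC4 did not pass (0.35, adjusted p = 0.386), while the test across zones passed (adjusted p = 0.00346).

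CSLC12 fell instead in the hair zone. It fell in zone 4 from 301 and 443 to 83.2 and 85.0 (-1.93, SE 0.22, adjusted p = 1.19e-05), and in zone 3 it read 393 and 440 on standard medium and 597 and 715 under salt (0.63, adjusted p = 0.04, not passed without any 1 of the zone's 4 arrays or under 3 other settings). CSLC5 rose in zone 3 by 0.93 (SE 0.23, adjusted p = 0.00561). In zone 2, CSLC4 changed by -0.83 (adjusted p = 0.0214; 0.0535 to 0.158 without any 1 array of that zone) and CSLC12 by 0.72 (adjusted p = 0.0385), the latter lost under 5 other settings (0.0509 to 0.109) and without zone 2 standard replicate 3 (0.197), standard replicate 4 (0.105) or NaCl replicate 1 (0.293). The trimming enzymes and cellulose synthases on the lists had no named probe set.

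The expansins, wall proteins that loosen the wall without cutting it, had 15 measured members of 36 written. In zone 3, 2 of 15 rose and 3 fell, beside 12.6% and 13.2% of all tested probe sets, and in zone 4, 2 rose and 2 fell, beside 5.5% and 6.56%. Their medians were -0.07 and 0.23. EXLA2 and EXLA1 rose in zone 4 (1.63, adjusted p = 0.0185, and 0.61, adjusted p = 0.0462), EXLA2 from very low arrays of 2.15 and 2.72 to 33.5 and 49.6. EXLA2, EXLA3 and EXPB1 fell in zone 3 (-3.31, -1.92 and -1.99). Nearer the tip EXLA1 fell in zones 1 and 2 (-1.60 and -1.63), EXPA18 in zone 1 (-0.87) and EXLA2 in zone 2 (-1.48). EXPA15 rose in zones 1 and 2 (0.86 and 0.59), and EXPA8 in zone 2 (1.34, from low arrays of 9.11 and 9.76). In zone 1, 1 of 15 expansins rose and 2 fell, beside 5.01% and 4.63% of all tested probe sets. In zone 2, 2 rose and 2 fell, beside 6.19% and 5.2%.

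Over the 8 group means, XTH18 and XTH21 had the most alike patterns of any 2 of the 5 genes (Pearson r = 0.970), and XTH19 was nearest to XTH16 (r = 0.784). XTH26 correlated with the others between -0.58 and 0.28. These values describe 8 means that share arrays, with no test. Among 9606 other probe sets of 1 gene, those most like XTH16 were AT4G35210 (r = 0.994), AT5G26790 (0.951) and AT1G01540 (0.934).

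For XTH18 the nearest were AT3G61490 (0.990), AT2G02610 (0.984) and AT3G44510 (0.978), and for XTH21 AT1G26970 (0.994), AT1G66440 (0.987) and AT5G38790 (0.985). XTH19 was nearest to AT1G12310 (0.996), ENOC (0.987) and AT4G29960 (0.987), whose salt changes in zone 3 were -0.31, -0.31 and -0.51. XTH26 was nearest to AT1G30760 (0.996), AT1G59850 (0.993) and ZCF37 (0.992), which changed by -1.32, -1.35 and -1.23 in zone 4. They were picked for likeness over group means that include zone 4 on both media, so a fall there follows largely from the choice. No gene was among the nearest of more than 1 XTH gene. A high correlation does not fix the size of a change: in zone 3, XTH19 changed by -1.15 and ENOC, an enolase, by -0.31.

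**Figure D4:**
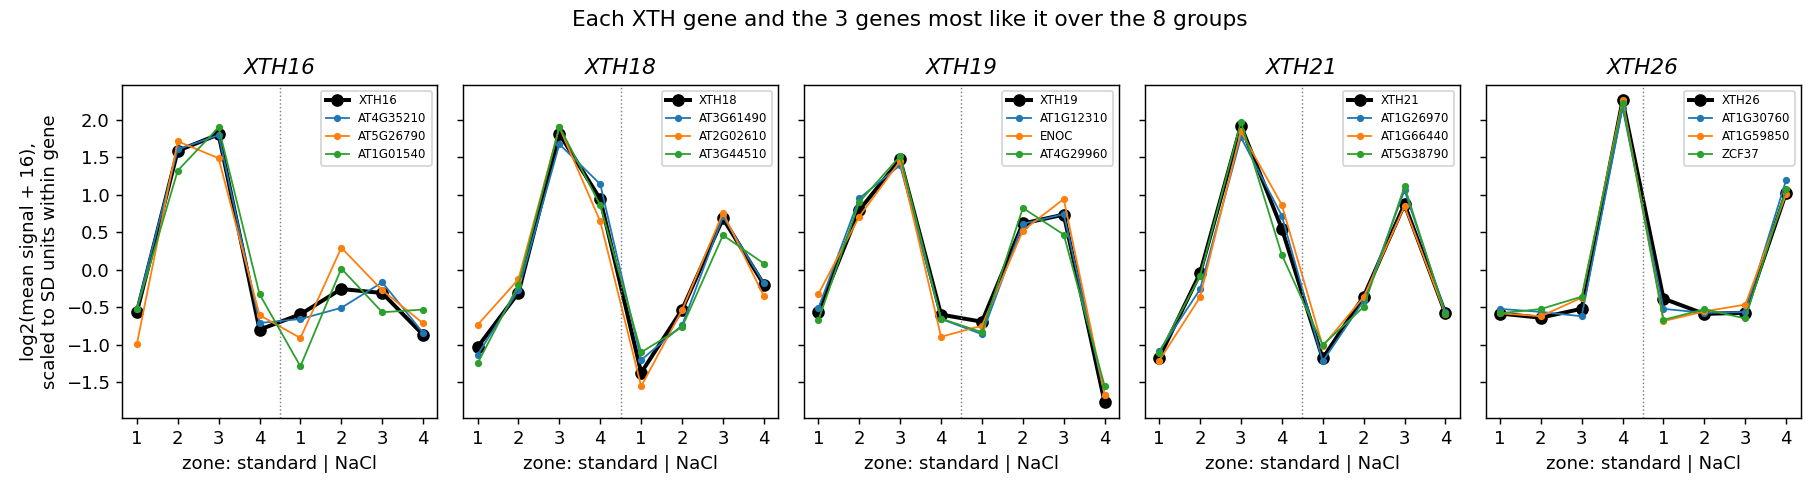
Group means of log2 (mean signal + 16), scaled within each gene to its SD over the 8 groups (y axis), for zones 1 to 4 on standard medium and then under NaCl (x axis); black is the XTH gene and colours are the 3 genes most like it. The curves overlie closely, with r from 0.934 for AT1G01540 with XTH16 to 0.996 for AT1G30760 with XTH26.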

How the data were processed

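The data were 16 ATH1 arrays of 22810 probe sets. The authors deposited MAS 5 signal intensities, per the submitters' processing notes, on a linear scale; the mean after trimming 2% at each end was 250.0 in every array. Detection calls and batch information were not used here, so no batch was examined. The 64 control probe sets were left out, and 17099 probe sets with at least 2 arrays above the 40th percentile (41.4) were analysed as log2(signal + 16). XTH16, XTH18, XTH19, XTH21 and XTH26 exceeded that level in 6, 12, 15, 9 and 4 arrays of 16.

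limma 3.58.1 in R 4.3.3 fitted 8 group means (eBayes with trend; 8 residual and 8.61 prior degrees of freedom), tested on simulated data. Benjamini-Hochberg adjustment ran over all 17099 probe sets per comparison, two-sided. Pairwise differences of salt changes between zones were added after the data were seen. Genes, lists and comparisons were chosen with earlier results of these data known. Named relatives were up to 4 per list and salt comparison with the smallest p past the threshold, plus the 3 nearest by correlation; XTH20 and XTH32, which passed in no salt comparison, were named after their values were seen. Alternatives tried were a pseudocount of 1 or of 64, quantile or median scaling, no low-signal filter, the 60th percentile, no trend, each array left out, single zones or media, and a replicate block. A gene with several probe sets would be read by the one of highest mean, but the 5 genes had 1 each.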

Additional observations from a re-analysis of the deposited data

Results flagged for a closer look

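All 5 genes were singled out because their salt change differed between zones by the test of the difference itself, beside 18.3% of all tested probe sets. XTH26 was under the filter level outside zone 4, XTH16 in zones 1 and 4, and XTH18 and XTH21 in zone 1. Hardly any fall could be read there, so for these 4 genes a difference between zones was partly built in. The adjusted p was 1.8e-06 for XTH16, 0.00244 for XTH21, 0.00333 for XTH19, 0.00815 for XTH18 and 0.0235 for XTH26. No group had enough arrays for a test of single outlying arrays.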

How the results depend on the processing

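The 5 genes had 13 salt changes that passed, and 306 of their 308 values under the alternatives kept direction and call. Many of these alternatives could not alter the size or direction of a change in a single zone. Leaving out an array of another zone, or changing the filter or the trend, moves only its p-value. Apart from the pseudocounts, a salt change that passed moved to between 0.805 and 1.2 times its value. The pseudocounts moved the sizes further, to between 0.663 times with 64 and 1.23 times with 1, both for XTH21 in zone 4. XTH26 in zone 4 lost its call with a pseudocount of 1 (-1.65) and, leaving out single arrays, ranged from -1.65 to -1.19. Its average change passed with a pseudocount of 64 (-0.23) and without a trend (-0.30). The differences between zones were lost with a pseudocount of 1 for XTH18 (0.162) and XTH26 (0.369), and for XTH26 ranged from 0.0174 to 0.133 when arrays were left out. Changes that had not passed turned sign without single arrays: XTH16 in zone 1 (-0.21 to 0.11) and zone 4 (-0.35 to 0.10), XTH21 in zone 1 (-0.094 to 0.055) and XTH26 in zone 1 (-0.054 to 0.47). The cause was not tested. Counts of probe sets that passed fell when arrays of the zone were left out, where fewer arrays remain: 848 to 1681 in zone 1 (main 1648), 981 to 1969 in zone 2 (1949), 2843 to 4455 in zone 3 (4420) and 1149 to 2104 in zone 4 (2062), and to 1297 in zone 2 with its 4 arrays alone. These counts moved by over 1.5 times without any 1 array of zone 1 (848 to 1020) or zone 2 (981 to 1207), without zone 3 standard replicate 5 (2843) or NaCl replicate 2 (2907), and without zone 4 standard replicate 7 (1196) or NaCl replicate 2 (1149). The replicate numbers 1 and 2 recur in 5 groups, whose replicate 2 minus 1 differences correlated between -0.02 and 0.06. No strong shift common to a replicate number was seen. Whether arrays of the same number came from the same roots is not in the labels, and these correlations cannot settle it. The replicate block gave 1391 calls in zone 1, against 1426 on the same 10 arrays without it (added after the data were seen). None of the 5 genes passed there with or without it. For the difference between NaCl zones all 5 passed with it and without it, and no zone 2, 3 or 4 salt change was run with it, since the standard groups there share no number with the salted ones. Signals below the filter level limit what can be read in zone 1 for all of the genes but XTH19. They do so too for XTH16 in zone 4, XTH21 in salted zone 4 and XTH26 outside zone 4. In salted zone 4 of XTH19, 1 of 2 arrays was below that level and the other at it.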
